A study of Mus musculus with 24 samples.

Results

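Regions of open chromatin that were called in the adult fast-biased muscles and almost never in the adult slow-biased muscles numbered 1385 of 459616 regions kept (0.301%). They were found by joining the peaks of 24 ATAC-seq peak lists into regions and keeping those called in at least 2 lists. A region was called in a library when a peak of that library overlapped it by at least 1 bp. Of the 6 adult fast-biased and 6 adult slow-biased libraries, a member was called in 6 fast-biased and at most 1 slow-biased, or in 5 fast-biased and 0 slow-biased. The adult calls of fast-biased against slow-biased libraries therefore chose the members, and their values there are a description with no test. The members split into 216 called 6 to 0, 574 called 6 to 1 and 595 called 5 to 0.

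ATAC-seq marks open chromatin by letting the Tn5 transposase insert adapters into accessible DNA. The libraries came from male mice of the inbred FVB/NJ strain, with no transgene, mutation or treatment named in the labels. Gastrocnemius and vastus lateralis, the muscles labelled fast-biased, and soleus and vastus intermedius, labelled slow-biased, were each sampled from 3 adults (postnatal day 56 by the series design, while the protocol states an older age) and from late fetuses (E18.5) of 3 litters. Each adult or litter gave all 4 muscles under 1 replicate number, and an E18.5 replicate pooled muscles of male embryos of 1 litter, so an embryonic value is a litter and not an animal. Nuclei came from whole undigested muscle, so that fewer nuclei of a type and less accessibility per nucleus cannot be told apart. The lists held 148259 to 219114 peaks in adult fast-biased libraries (179502 ± 25869, SD, n = 6) and 115333 to 211875 in slow-biased ones (153684 ± 33728). Longer lists mostly called more of all kept regions, though not always more of the members. Over all kept regions, the share called was 4.26 ± 3.39 percentage points (SD, n = 3 animals) higher in the fast-biased than in the slow-biased libraries. At E18.5 the lists held 168920 ± 26502 peaks in fast-biased and 166792 ± 43304 in slow-biased libraries.

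Skeletal muscle fibres differ in the myosin heavy chain they use, in how fast they release and take up calcium and in how they make ATP. Fast glycolytic fibres use the heavy chain encoded by Myh4 and burn glycogen, slow fibres use the one encoded by Myh7 and rely on mitochondria, and nerve activity acting through calcineurin and NFAT favours the slow program, while Sox6 and Eya1 are known to act for the fast one. Mouse fibres still express embryonic and neonatal myosins around birth, and the adult fast types are established in the weeks after it.

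The promoters of 6 genes are shown because their regions join the pattern in the adult with different histories before birth. Those of Mstn (myostatin, a secreted inhibitor of muscle growth), Fgf7 (a fibroblast growth factor acting on epithelia), Pls1 (plastin 1, which bundles actin) and Rnf186 (a RING-finger protein) lay under regions called 6 to 0 in the adult. Those of Mss51 (a muscle protein linked to mitochondrial respiration) and Pdzd7 (a PDZ-domain protein of sensory hair bundles) lay under regions called 6 to 1 and in 0 of the 12 E18.5 libraries. They were chosen after their values were seen. Each line gives the 250 bases before the RefSeq transcript start (GRCm38.p6, the assembly of mm10), 5′ to 3′ on the strand of the gene, with capitals for matches of the searched motifs other than GGGCGG.
Mstn, chr1:53061390-53061639, plus strand: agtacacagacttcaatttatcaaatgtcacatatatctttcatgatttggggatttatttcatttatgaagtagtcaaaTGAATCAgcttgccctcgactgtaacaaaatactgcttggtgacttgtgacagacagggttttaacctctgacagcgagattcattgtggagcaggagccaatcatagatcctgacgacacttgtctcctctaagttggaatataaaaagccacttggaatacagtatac
Fgf7, chr2:126034408-126034657, plus strand: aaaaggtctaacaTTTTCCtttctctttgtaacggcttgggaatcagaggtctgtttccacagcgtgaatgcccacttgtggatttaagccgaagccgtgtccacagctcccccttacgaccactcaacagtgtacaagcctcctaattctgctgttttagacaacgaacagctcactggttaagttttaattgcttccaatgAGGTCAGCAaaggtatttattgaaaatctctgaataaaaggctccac
Pls1, chr9:95845280-95845529, minus strand: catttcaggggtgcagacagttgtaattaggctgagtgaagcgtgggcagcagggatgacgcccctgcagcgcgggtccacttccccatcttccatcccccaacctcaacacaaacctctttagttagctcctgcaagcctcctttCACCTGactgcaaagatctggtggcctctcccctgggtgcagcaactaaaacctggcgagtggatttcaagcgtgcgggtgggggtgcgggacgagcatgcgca
Rnf186, chr4:138966869-138967118, plus strand: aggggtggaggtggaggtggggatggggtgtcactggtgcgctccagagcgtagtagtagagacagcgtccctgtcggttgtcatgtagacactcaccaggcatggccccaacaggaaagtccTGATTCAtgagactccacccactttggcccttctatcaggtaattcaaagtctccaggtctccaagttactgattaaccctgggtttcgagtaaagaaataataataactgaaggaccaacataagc
Mss51, chr14:20496902-20497151, minus strand: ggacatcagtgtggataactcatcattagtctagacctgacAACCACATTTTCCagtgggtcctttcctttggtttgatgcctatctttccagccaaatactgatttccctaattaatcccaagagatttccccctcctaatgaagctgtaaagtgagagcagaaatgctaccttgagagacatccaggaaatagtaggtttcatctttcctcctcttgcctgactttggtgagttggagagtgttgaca
Pdzd7, chr19:45045773-45046022, minus strand: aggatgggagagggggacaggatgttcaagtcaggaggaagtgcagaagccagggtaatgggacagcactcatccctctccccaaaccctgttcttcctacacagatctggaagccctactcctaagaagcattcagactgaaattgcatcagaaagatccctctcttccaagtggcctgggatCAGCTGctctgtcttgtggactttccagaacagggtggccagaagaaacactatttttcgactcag
The capitals in Mstn (TGAATCA) and Rnf186 (TGATTCA) match TGANTCA, a loose search pattern for AP-1 that allows any base at N. They are not called AP-1 sites here. Those in Pdzd7 and Pls1 are CAGCTG and CAGGTG (E-boxes, which MyoD-family factors bind). In Mss51 they are GGAAAA (the NFAT core) directly followed by TGTGGTT (a RUNX site), both read on the reverse strand. Fgf7 holds GGAAAA and an overlap of AGGTCA (the nuclear receptor half-site) with TGCTGAC (the MAF half-site). The match in Mstn lies just before the start of the called region, and the others lie inside theirs. The Mstn and Rnf186 regions covered 159 and 156 of the 250 bases, the Pdzd7 region 137, and the other 3 regions all 250.

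RefSeq promoter windows of 300 bases (250 before to 50 after a start) were overlapped by 47 of the 1385 regions (3.39%, against 3.99% of all kept regions), at 48 genes. Both strands of the windows were searched for motifs, given here as the count among the 48 genes and the share among all 32851 promoter windows. Of the E-boxes that MyoD-family factors bind, CAGCTG was in 10 (20.8%, against 13% of all windows) and CAGGTG was in 12 (25%, against 17.2%). The RUNX site TGTGGTT was in 5 (10.4%, against 4.4%), and the TEAD core GGAATG was in 8 (16.7%, against 12.6%). The MAF half-site TGCTGAC was in 3 (6.25%, against 3.81%) and the nuclear receptor half-site AGGTCA, which can overlap it, in 8 (16.7%, against 14%). The NFAT core GGAAAA was in 10 (20.8%, against 20.4%), and the loose AP-1 pattern TGANTCA, with any base at N, was in 3 (6.25%, against 6.75%). Found in 1 gene each (2.08%) were the SOX site CCATTGT (3.02% of all windows) and the T-box half-site AGGTGTGA (1.12% of all windows). The MEF2 motif was in 0 of the 48, and in 0.508% of all windows. The GC box GGGCGG was in 12 (25%), against 32.7% of all windows and 45.3% of those under any kept region. The G and C share was 52.8% in the 48 genes, 57.6% in the windows under any kept region and 53.2% in all windows. These letters describe the windows and do not show that a factor binds there. Other genes with such a promoter included Col19a1 (a collagen of muscle), Esr2 (an oestrogen receptor), Hcn2 (a pacemaker channel), Kcnab1 (a potassium channel subunit), Npas4 (a neuronal activity factor) and H6pd (an enzyme of the endoplasmic reticulum).

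Within the adult, vastus lateralis called more of the members than gastrocnemius in animals 2 and 3, and the muscles were nearly equal in animal 1. Vastus lateralis libraries called 93.6%, 96.4% and 95.2% of the members, against 33%, 31.4% and 27.6% of all kept regions. Gastrocnemius libraries called 93.4%, 88.6% and 89.9%, against 28.7%, 32.1% and 26.2%. These libraries also chose the members. Of the 595 regions that missed 1 fast-biased library, 389 (65.4%) missed a gastrocnemius and 206 (34.6%) a vastus lateralis. The slow-biased libraries called 5.27% to 11.3% of the members, against 20.4% to 33% of all kept regions, and the highest for members was vastus intermedius 2. Of the 574 regions with a single slow call, 328 (57.1%) owed it to vastus intermedius and 246 (42.9%) to soleus, with 157 (27.4%) from vastus intermedius 2 alone, although its list of 145382 peaks was shorter than every adult soleus list. The single slow call was narrower than the fast ones: it covered a median of 394 bp, against 507 bp in the fast-biased libraries of the same regions, and was the narrower in 367 of 574 (63.9%).

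Just outside the rule lay 1561 regions called 5 to 1, 1251 called 6 to 2 and 1951 called 4 to 0. The mirrored rule, with slow-biased and fast-biased exchanged, found 227 regions (0.0494%). That imbalance moved with how many peaks each list gave, and which: the fast-biased set was 6.1 times the mirrored set with full lists, 2.6 times when each list gave its widest 115333 peaks, and 1.15 times when each gave 115333 random ones. How much of it comes from list length was not tested further. A joined region can also hold neighbouring peaks that do not overlap. In 892 members (64.4%) at least 5 fast-biased libraries covered 1 common base, in 702 (50.7%) all the calling fast-biased libraries did, and in 203 no base was covered by more than 3. The members were 1207 bp wide in the median, against 745 bp for all kept regions and 1379 bp for 5723 regions called evenly, in 3 fast-biased and 3 slow-biased adult libraries.

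Regions chosen in 2 of the adults were called in the same direction in the adult left out. The rule was scaled to the other 2 adults, so that a region chosen was called in 4 of their fast-biased and at most 1 of their slow-biased libraries, or in 3 and 0. With adult 1 held out, the 8247 chosen regions were called in 51.8% by its gastrocnemius and 51.5% by its vastus lateralis, against 31.5% by its soleus and 29.3% by its vastus intermedius. With adult 2 held out, the 9481 regions were called in 51.2%, 58.2%, 38.3% and 39.9% in the same order. With adult 3 held out, the 9222 regions were called in 42.7%, 47.7%, 29.2% and 28.7%. Both fast-biased muscles were above both slow-biased ones in 3 of 3 animals. The fast-biased share was higher by 17.7 ± 3.13 points (SD, n = 3, from 15.6 to 21.3), while it was higher by 4.26 ± 3.39 points over all kept regions and by -1.96 ± 3.72 over regions chosen by the mirrored rule. With 4 of 4 and 0 of 4 calls required, the difference was 28.9 ± 3.19 points and the mirrored one -9.56 ± 1.36. These sets are wider than the 1385 members, since 2 animals set a looser rule, and no test was made over the 3 animals.

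**Figure D1:**
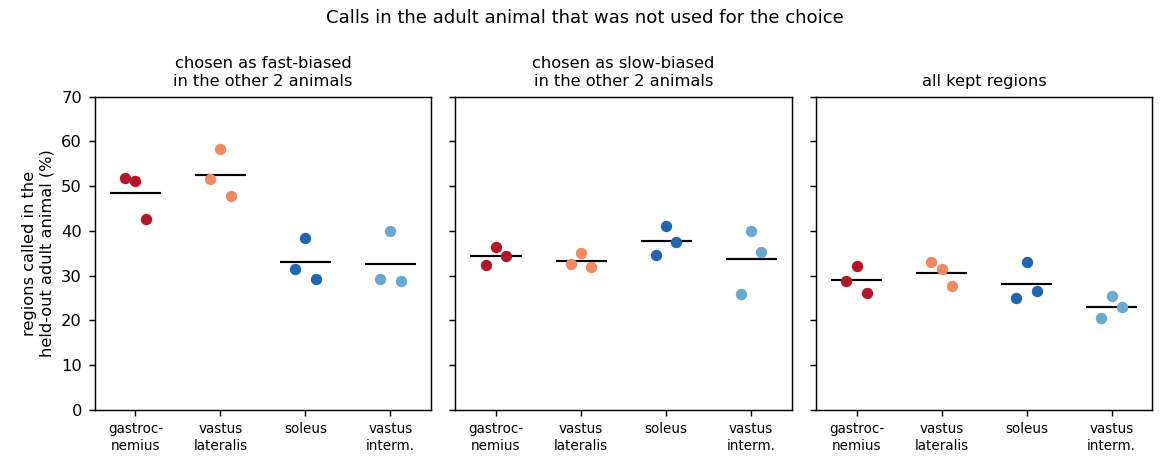
Share of regions (percent, vertical axis) called in each muscle of the adult animal left out of the choice, 1 point per animal and a bar at the mean, for regions chosen as fast-biased, chosen as slow-biased, and all kept regions. In the first panel the gastrocnemius and vastus lateralis points lie between 42.7% and 58.2% and the soleus and vastus intermedius points between 28.7% and 39.9%.

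Genes of the fast fibre held the members most often among the 19 gene lists. A locus was the gene body plus 10 kb on each side, and 1424 of 34614 gene loci (4.11%) held at least 1 member, among them 1067 of 21887 protein-coding ones (4.88%). Of 32 fast fibre genes, 11 did (34.4%): Myh4, Mylpf, Actn3, Casq1, Ampd1, Ryr1, Tpm1, Myoz1, Pde4dip, Kcnn3 and Scn4a. They held 12 of the 689 regions of the list's loci (1.74%), against 0.332% over the loci of all genes. Of 24 slow fibre genes, 0 held a member among 485 regions, and 3 of those regions were in the mirrored set. The rule used these adult calls, so the counts describe where the members lie. With a peak required to cover 50% of a region, 7 fast fibre genes held one, and 6 with equal numbers of the widest peaks. Of the 12 members in the fast fibre loci, 3 overlapped the 50% cover set (at Casq1, Ampd1 and Tpm1) and 6 the widest-peak set. Some of the 7 genes therefore held other regions.

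**Figure D2:**
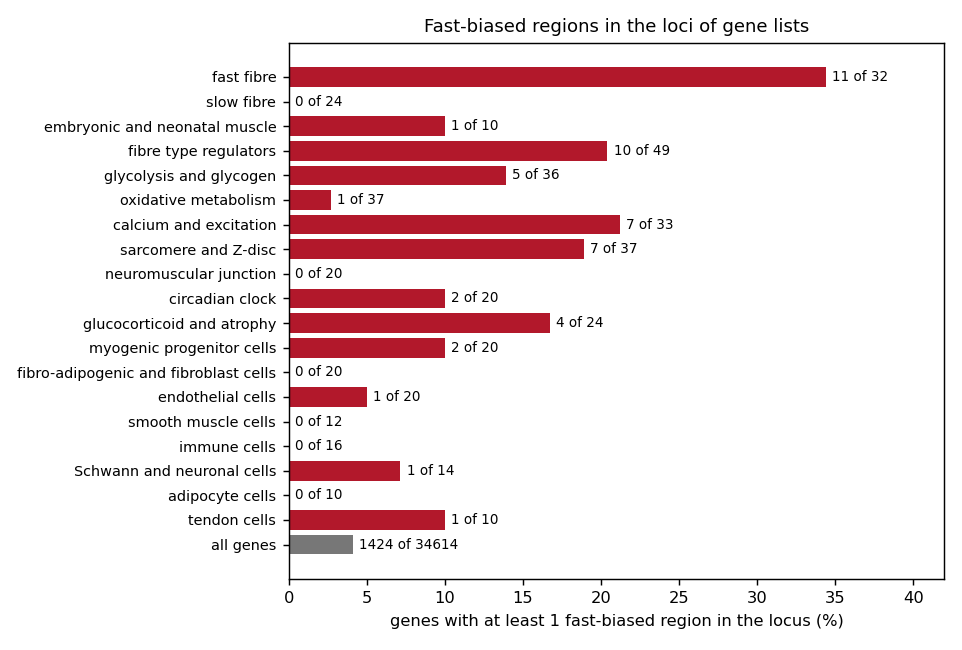
Share of the genes of each list (percent, horizontal axis) with at least 1 fast-biased region within the gene body plus 10 kb, with the counts beside the bars and all genes in grey. The fast fibre list stands at 11 of 32 genes, and the slow fibre list at 0 of 24, with all genes at 4.11%.

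At the contractile genes, peaks in the fast-biased libraries ranged from narrow at Mylpf to wide at Myh4. The Myh4 region (chr11:67244058-67245664, mm10), inside the gene of the fastest myosin heavy chain, was covered by 1012, 541 and 784 bp of peak in gastrocnemius 1 to 3 and by 878, 1035 and 1432 bp in vastus lateralis 1 to 3. Soleus 3, with 329 bp, was the only slow-biased library to call it. At E18.5 only soleus 2 called it, with 240 bp. The Actn3 region (chr19:4864527-4865774), inside the gene of alpha-actinin-3 of the fast Z-disc, was covered by 499, 409 and 265 bp in gastrocnemius and 845, 610 and 1056 bp in vastus lateralis, and by 0 bp in all 6 slow-biased adult libraries. All 12 E18.5 libraries called it, with 239 to 1055 bp, slow-biased muscles included. Mylpf, the fast regulatory light chain, had a narrow region (chr7:127210192-127210882) with 374, 0 and 232 bp in gastrocnemius and 303, 229 and 400 bp in vastus lateralis, and 0 bp in the slow-biased adults. Gastrocnemius 2 was the fast-biased library without it. Myoz1, a calsarcin of the fast Z-disc, had a region 1727 bp from the gene and 1205 bp from Usp54 (chr14:20645696-20647375), with 551, 596 and 1302 bp in gastrocnemius, 203, 490 and 1142 bp in vastus lateralis and 461 bp in vastus intermedius 1. The Tpm1 region (chr9:67050696-67051411), 1024 bp from this tropomyosin gene, was covered by 436 to 618 bp in the fast-biased libraries, 307 bp in vastus intermedius 2, and 0 bp in all 12 E18.5 libraries.

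Genes of calcium release and excitation in fast fibres also held members. Casq1, the calcium-binding protein of the fast sarcoplasmic reticulum, held a pair of members. The region inside the gene (chr1:172214228-172214967) was covered by 360 to 699 bp in the 6 fast-biased libraries and 0 bp in every slow-biased adult library, and at E18.5 only vastus lateralis 1 called it. The region 1369 bp outside the gene (chr1:172221264-172222328), nearer to Atp1a4 at 1180 bp, was covered by 499 to 819 bp in the fast-biased adults and 560 bp in vastus intermedius 2, and 10 of 12 E18.5 libraries called it, 5 fast-biased and 5 slow-biased. So the neighbouring members at 1 gene differed before birth. Ryr1, the calcium release channel, had a region (chr7:29014828-29016043) with 715, 418 and 484 bp in gastrocnemius, 317, 722 and 462 bp in vastus lateralis, 0 bp in the slow-biased adults, and 7 E18.5 calls. Scn4a, the muscle sodium channel (chr11:106333847-106334653), had 253 to 623 bp in the fast-biased adults, 0 bp in the slow-biased ones and 2 E18.5 calls. Ampd1, the muscle AMP deaminase, had a region 3402 bp outside the gene (chr3:103070022-103070495), nearer to Nras at 2108 bp, with 268 to 439 bp in the fast-biased adults, 0 bp in the slow-biased ones and 1 E18.5 call. In the Kcnn3 locus, of a calcium-activated potassium channel, the region (chr3:89612229-89614629) rested on neighbouring peaks: no base was covered by more than 2 fast-biased libraries, and all 12 E18.5 libraries called it. In the other 11 regions of the list, at least 5 fast-biased libraries covered a common base. Trdn (triadin, which links calsequestrin to the release channel) and Asph, which lie outside the fast fibre list, held 1 and 2 members. In the calcium and excitation list as a whole, 7 of 33 genes (21.2%, against 4.11% of all genes) held 9 members. Casq1, Ryr1, Scn4a and Kcnn3 count in both lists. The loci of the calcium list had a median of 27 regions, against 9 for all genes, and members were 0.904% of their regions, against 0.332%.

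**Figure D3:**
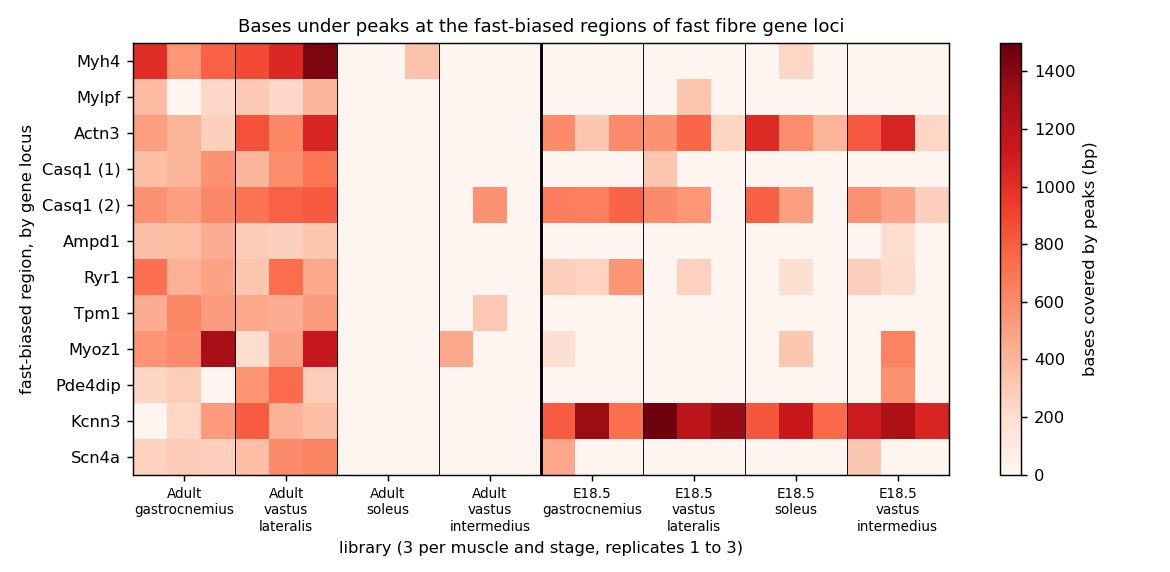
Bases covered by peaks (colour, bp) at the 12 fast-biased regions of fast fibre loci (rows) in 24 libraries (columns, 3 per muscle and stage). The 6 adult fast-biased columns are filled in nearly every row, the adult slow-biased ones show 4 single cells, and at E18.5 only the Actn3, Kcnn3 and 1 Casq1 row are filled in 10 or more columns.

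Regulators of fibre type held 17 members at 10 of 49 genes (20.4%, against 4.11% of all genes). Their loci are large, with a median of 28 regions against 9 for all genes, and members were 0.761% of their regions, against 0.332%. With 50% cover, or with equal numbers of the widest peaks, 6 genes held a member. Of the 17 members described here, 0 overlapped the 50% cover set and 6 the widest-peak set. The 6 genes under 50% cover therefore held other regions. The list also held 3 regions of the mirrored set, 1 each at Sox6, Eya1 and Fnip1. Sox6, a repressor of slow genes, held 1 (chr7:115807323-115808740), with 1084, 544 and 368 bp in gastrocnemius, 400, 647 and 834 bp in vastus lateralis, 0 bp in the slow-biased adults and 0 of 12 E18.5 calls. Members also lay in Nfatc1, a calcineurin target, in Ppp3ca (2, the catalytic subunit of calcineurin), in Mef2c (a muscle transcription factor) and near Ppp3cb, whose region is the Mss51 promoter printed above. That Mss51 region (chr14:20495517-20497368) was covered by 1548, 427 and 1506 bp in gastrocnemius, 620, 1219 and 1268 bp in vastus lateralis and 470 bp in vastus intermedius 2. These 6 members, with Nfatc1, were called in 0 of 12 E18.5 libraries, as were 2 of the 6 in Rora, a nuclear receptor of the clock. Over the list, 8 of 17 members had 0 E18.5 calls, against 20.2% of all regions in its loci. Members in Hdac4 (2, a histone deacetylase), Esrrb and Ppard (nuclear receptors) and near Tead1 (the Hippo pathway factor) were called at E18.5 in 3 to 11 libraries. In 9 of the 17, at least 5 fast-biased libraries covered a common base; in 1 Hdac4 region and the Esrrb region no more than 2 did.

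Of 36 genes of glycolysis and glycogen, 5 held 6 members (13.9% of genes, against 4.11% of all genes): Pgk1 (phosphoglycerate kinase), Pfkfb3 (which makes the activator of phosphofructokinase), Gpd2 (2, the mitochondrial glycerol phosphate dehydrogenase), and Phka1 and Phkb (phosphorylase kinase subunits). Pfkfb3 was covered by 540, 415 and 768 bp in gastrocnemius, 1547, 1195 and 826 bp in vastus lateralis and 0 bp in the slow-biased adults. Of 37 genes of oxidative metabolism, 1 did (2.7%, near the share of all genes), Acsl1 (which activates long-chain fatty acids). With equal numbers of the widest peaks the order of these lists turned round, with 1 glycolytic and 2 oxidative genes, and with 50% cover it was 6 and 0. Of the 6 glycolytic members, 0 overlapped the 50% cover set and 1 the widest-peak set, so the genes under 50% cover held other regions. The sarcomere and Z-disc list had 9 members at 7 of 37 genes (18.9%, against 4.11% of all genes). Its loci had a median of 16 regions, against 9 for all genes, and members were 0.856% of their regions, against 0.332%. Among its genes with members were Neb (2, nebulin), Myom2 (2, an M-band protein), Cap2 (an actin regulator) and Fhl3 (a LIM protein). Actn3 and Myoz1 count both there and in the fast fibre list. Fhl3 (chr4:124695951-124696534) was called 6 to 0 with 262 to 486 bp and in 0 E18.5 libraries, and Cap2 (chr13:46619346-46621850) 6 to 0 with 277 to 1248 bp and in all 12.

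Growth and glucocorticoid genes held members at 4 of 24 loci (16.7%, against 4.11% of all genes), and at 0 with 50% cover. The Mstn region over the promoter printed above (chr1:53061481-53063511) had some of the widest coverage: 1560, 726 and 987 bp in gastrocnemius, 1307, 741 and 1398 bp in vastus lateralis, and 0 bp in the slow-biased adults. At E18.5 it was called in 4 fast-biased and 2 slow-biased libraries (Fisher's exact p = 0.567). Fkbp5, a glucocorticoid-induced chaperone, held 2 adjacent members called in 11 and 12 E18.5 libraries, and Klf15 (a glucocorticoid-induced factor) and Fbxo32 (a ubiquitin ligase of atrophy) 1 each. Of 20 clock genes, 2 had members in their loci (10%, against 4.11% of all genes). Rora held 6, in a locus of 277 regions, and Nr1d2 (a REV-ERB receptor) was near 1. Members were 1.03% of the regions in clock loci, against 0.332% over the loci of all genes.

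The loci with the most members were long genes that hold many regions: Pde4d (a cAMP phosphodiesterase) 8 of 272 regions, Rora 6 of 277, Rbfox1 (a splicing factor of muscle and neurons) 5 of 193 and Atp8a2 (a lipid flippase) 4 of 151. Mylk4, a myosin light chain kinase family member, held 4 of 46 (8.7%, against 0.332% over the loci of all genes). Of these 4, 2 were called in 0 E18.5 libraries. The 4 Mylk4 regions were covered by 258 to 1415 bp wherever a fast-biased library called them. Of the 8 Pde4d members, 5 were called in 0 E18.5 libraries, and of the 5 Rbfox1 members, 3. Loci with 3 members were Aven, Dnase1, Ext2, Gdpd5, Helz, Map2k5, Palld, Ppp6r3, Sorbs2, Tmem87a, Trap1 and Ttc28, where Dnase1 and Trap1 share the same 3 regions. Some of these had a higher share than Mylk4: Dnase1 and Tmem87a 3 of 12 each (25%), Trap1 3 of 27 (11.1%) and Aven 3 of 34 (8.82%). The 3 at Tmem87a were all at 0 of 12 E18.5 libraries. Of the members, 80 (5.78%) had another within 10 kb, against 8 (3.52%) of the 227 regions of the smaller mirrored set. No set of equal size was compared, so whether members cluster was not tested.

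Several loci known for fibre type held none. In the loci of Myh2 and Myh1, the neighbouring fast myosin genes, the region nearest to the rule lay inside Myh1 (chr11:67203943-67205613) and was called 6 to 2. The best region was called 5 to 1 in the loci of Mybpc2 (fast myosin-binding protein C) and Tbx15, 6 to 2 at Prkag3 (the AMPK subunit of glycolytic muscle), 6 to 3 at Pvalb (parvalbumin), Eya1 and Maf, and 4 to 0 at Pfkm (muscle phosphofructokinase). The slow genes Myh7, Atp2a2 and Tnnt1 and the oxidative coactivator gene Ppargc1a held 0, with best regions called 3 to 0, 6 to 5, 3 to 1 and 3 to 1. The best region is the one leaning most to fast-biased libraries. Regions leaning by 3 or more calls to fast-biased, against slow-biased, were 0 against 15 at Ppargc1a, 1 against 4 at Myh7 and Myh2, 0 against 3 at Atp2a2 and 0 against 1 at Tnnt1. They were 2 against 2 at Myh1, 4 against 0 at Mybpc2 and Prkag3, 3 against 1 at Eya1, 2 against 0 at Tbx15 and Maf, 2 against 1 at Pfkm and 1 against 0 at Pvalb. A locus with no member can still lean to either kind of muscle, below the threshold.

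Among defining genes of other cell types, members were about as frequent as among all genes (4.11%). Lists of fibro-adipogenic cells and fibroblasts (0 of 20 genes), smooth muscle (0 of 12), immune cells (0 of 16), adipocytes (0 of 10) and the neuromuscular junction (0 of 20) held none. Endothelial cells had 1 of 20 (Erg), Schwann cells and neurons 1 of 14 (Ngfr), tendon 1 of 10 (Scx) and myogenic progenitors 2 of 20 (Cdh15 and Megf10). At Erg and Ngfr no base was covered by more than 3 fast-biased libraries. The mean difference in calls over all regions of these loci, fast-biased minus slow-biased, lay between 0.133 of 6 libraries (smooth muscle) and 0.416 (Schwann cells and neurons), against 0.274 over all genes and 0.631 for the fast fibre list. Against the value over all genes, smooth muscle, endothelial cells (0.153), immune cells (0.202) and tendon (0.253) lay lower, and adipocytes (0.303), fibro-adipogenic cells and fibroblasts (0.309), myogenic progenitors (0.378) and Schwann cells and neurons higher. The part of cell composition in the members was not tested.

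Most members lay away from gene starts. Within 1 kb of a gene end were 182 (13.1%, exact binomial 95% interval 11.4% to 15%, covering counting error only, against 11% of all kept regions), inside genes 788 (56.9%, against 50.8%) and between genes 415 (30%, against 38.3%). The annotation used gave no exons or introns. The median distance to the nearest transcript start was 21504 bp, against 24740 bp for all kept regions, 24265 bp for the evenly called ones and 32514 bp for the mirrored set.

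Before birth the members were called in many libraries of both kinds of muscle. The 12 E18.5 libraries called 40.7% ± 6.79 of them in fast-biased muscles (SD, n = 3 litters) and 36.9% ± 9.29 in slow-biased ones, a difference of 3.83 ± 8.75 points. The litters gave 9.82, -6.21 and 7.87 points, and all kept regions gave 5.49, -7.05 and 4.28 points in the same litters, so the litter with the negative sign was negative for the whole genome too. In litter 2 the soleus list was the longest of the study, at 228137 peaks. Above all kept regions of the same litter the members were 4.33, 0.84 and 3.59 points more often called in fast-biased libraries, positive in 3 of 3 litters. The evenly called regions gave 9.02, -8.61 and 5.29 points, and the mirrored set 7.05, -9.25 and 7.05. Over the evenly called regions the excess of the members was smaller in litters 1 and 3 and larger in litter 2. Leaving out litter 1, 2 or 3 gave a difference of 1.21, 9.1 or 1.89 points. No test was made over the 3 litters. By muscle, the members were called in 43.4% ± 12.3 by gastrocnemius, 38% ± 3.75 by vastus lateralis, 36.1% ± 13.7 by soleus and 37.7% ± 6.72 by vastus intermedius, so that vastus lateralis differed from vastus intermedius before birth by less than the spread between litters.

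**Figure D4:**
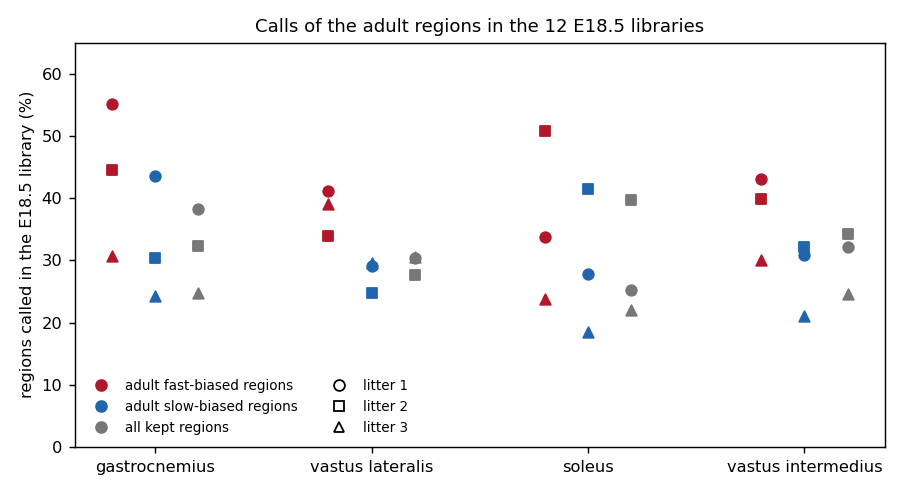
Share of adult fast-biased regions (red), adult slow-biased regions (blue) and all kept regions (grey) called in each E18.5 library (percent, vertical axis), by muscle, with a marker shape per litter. Red points run from 23.8% to 55.2% and lie above the grey point of the same library, and they overlap between fast-biased and slow-biased muscles.

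Histories before birth were mixed. A member was called in 4.66 of 12 E18.5 libraries on average, above all kept regions (3.62) and the mirrored set (3.53) and below the evenly called regions (5.99). Of the 1385, 242 (17.5%) were called in 0 E18.5 libraries, against 14.9% of all kept regions, 4% of the evenly called ones and 23.3% of the mirrored set. At the other end 85 (6.14%) were called in all 12, against 7.46% of all kept regions. Kept regions need only 2 calls and members at least 5, so the evenly called set, with 6 adult calls, is the nearer comparison. By position, members near gene ends were called in 5.63 E18.5 libraries on average, those inside genes in 4.4 and those between genes in 4.72, where all kept regions of these classes gave 6.24, 3.34 and 3.23. The 47 at promoter windows gave 7.77, against 9.35 for all kept regions there, and 13 of them were called in all 12.

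**Figure D5:**
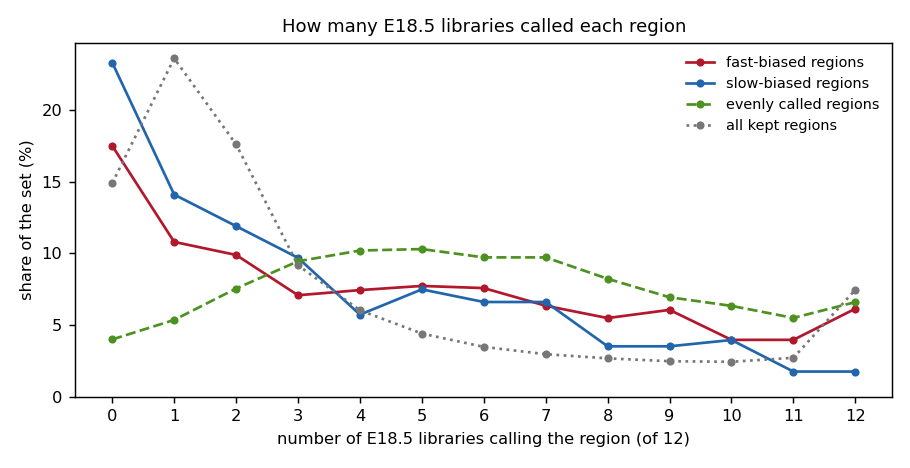
Share of each set of regions (percent, vertical axis) by the number of E18.5 libraries that called the region (horizontal axis). Fast-biased regions are highest at 0 libraries (17.5%), where evenly called regions stand at 4% and slow-biased regions at 23.3%.

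Among the 216 members called 6 to 0, 50 were called in 0 of 12 E18.5 libraries and 16 in all 12. Over all kept regions the shares were 14.9% and 7.46%. Calls in all 12 were thus about as frequent among the 216 as over all kept regions. The 6 to 0 members with 0 calls included the regions in Ppp3ca, Sox6, Nfatc1, Pgk1 and Fhl3 and one 5186 bp from Bcl2l1. In this Ppp3ca region no base was covered by more than 3 fast-biased libraries. The 6 to 0 members with 12 calls included Cap2, Actn3, Cdh15 (M-cadherin of satellite cells and muscle), one nearest to Ets2, the Fgf7 promoter and one nearest to Ubl3. At Cdh15 (chr8:122852939-122853989) coverage at E18.5 was 549 to 999 bp over the 12 libraries, overlapping 244 to 641 bp in the adult fast-biased libraries and 0 bp in the adult slow-biased ones. At the Fgf7 promoter (chr2:126033087-126035219) it was 363 to 1127 bp at E18.5, 230 to 1043 bp in the adult fast-biased and 0 bp in the adult slow-biased libraries. These regions were therefore called in soleus and vastus intermedius before birth and not in the adult. Fast fibre members had a median of 1.5 E18.5 calls and regulator members 1, against 4 over all members; the medians over all regions in the loci of both lists and over all kept regions were 2.

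A per-region test at E18.5, which the adult rule did not use, called nothing. Fisher's exact test was two-sided, on 6 against 6 libraries, with Benjamini-Hochberg adjustment over the 49905 regions with enough calls. It gave 0 regions (0%) at an adjusted p under 0.05. The smallest p the design allows is 0.00216, so any region could pass the adjustment only if very many were split 6 to 0. The 0 therefore does not show that the muscles were alike before birth. At an unadjusted p under 0.05, 3 of 300 members tested were higher in fast-biased libraries (1%, against 0.591% of all regions tested) and 0 in slow-biased ones (against 0.234%). The 3 were a region 5132 bp from Dchs2 (chr3:83368161-83369143; a protocadherin), called in 5 fast-biased and 0 slow-biased E18.5 libraries, one in Mpp3 (chr11:101999084-101999921; a membrane scaffold protein), called 5 to 0, and one in Fmnl1 (chr11:103181502-103182927; a formin), called 6 to 1, each with an unadjusted p of 0.0152. They were picked for this value. Dchs2 was covered at E18.5 by 850, 402 and 597 bp in gastrocnemius and 500, 0 and 248 bp in vastus lateralis, and in the adult by 463 to 852 bp in all 6 fast-biased libraries and 313 bp in vastus intermedius 2.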

How the data were processed

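Open chromatin was measured by ATAC-seq in 24 libraries (8 groups of 3). The authors deposited 1 peak list per library with chromosome, start and end on mm10 and no score, count or signal, per the file headers and contents, so the values are positions (a unit of another kind) and the read depth is not given in the sources used here. The submitters' processing notes name MACS2 2.1.1, Bowtie2 2.4.4, bedtools 2.25.0, SAMtools 1.14.0, Trimmomatic 0.39.0 and Picard, with no order or settings; calling thresholds and the shift of reads for the transposase are not given there.

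Peaks were joined across lists, book-ended ones included, and a region was called in a library at 1 bp of overlap (Python 3.11.15, NumPy 2.4.6, SciPy 1.17.1). Gene positions, promoter windows and sequences came from RefSeq on GRCm38.p6 (34614 genes; 1 of 445 list names, Baf60c, was not matched by symbol). No genome sequence was used, so region sequences were not analysed here and the promoter windows took their place. The joining and the tests were tested on simulated data. Members and gene lists were chosen with earlier results of these data known. Named loci are the 15 or so with most members, up to 6 genes per list, fixed fibre type loci and 6 to 0 members with 0 or 12 E18.5 calls. Replicate numbers pair the samples because the labels take the 4 muscles from 1 animal or litter. Deviations of same-numbered libraries correlated by -0.0054 to 0.114 at E18.5 and -0.0042 to 0.0309 in the adult (18 pairs each). Results for some genes and motifs are not reported here.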

Additional observations from a re-analysis of the deposited data

Results flagged for a closer look

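In 1 of 21 groups of libraries checked, 1 library stood apart from the other 5. Among the 6 E18.5 fast-biased libraries, gastrocnemius 1 called 43.6% of the 227 regions of the mirrored, slow-biased set, while the other 5 called 24.2% to 30.4%. The same library had the longest list of the 6, with 211354 peaks, and also called the largest share of the fast-biased regions (55.2%) and of all kept regions (38.2%) among them. Chance gives such a gap in about 1 of 20 groups. Without litter 1, to which this library belongs, the E18.5 difference of the fast-biased regions was 1.21 points in place of 3.83.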

How the results depend on the processing

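The choice of members depended on the processing. Their number was 1385 with full lists, 530 with a peak required to cover 50% of a region, 755 and 379 with the same number of widest or of random peaks per list, 216 with 6 to 0 calls only, and 898 with the first peaks of each file (chosen after seeing the data). Of the 1385, 108, 478, 226 and 582 overlapped the sets of the 50%, widest, random and first-peak settings. Leaving out 1 adult, with the rule scaled to the other 2, gave 8361 to 9499, and leaving out 1 litter 1395 to 1405. The mean number of E18.5 libraries fell from 4.66 to 2.41 with 50% cover and 3.69 with the first peaks. The share within 1 kb of a gene end was 17.9% with 50% cover, 11.2% to 12% with an adult left out, 12.8% to 13.3% with a litter left out and 20.6% within 2.5 kb. Fast fibre genes with a member were 7 and 6 with 50% cover and with widest peaks, while 3 and 6 of the 12 main members in their loci overlapped those sets. The held-out difference was 28.9 points with 4 to 0 calls and 25.9 with 50% cover (added after seeing the data). The cause was not tested. Of all values under alternatives, 66 main and 32 list values kept within their spread or 1.5 times, and 17 and 28 moved. Many of the 66 could hardly move. The E18.5 test gave 0 in every setting, and E18.5 differences from 0.597 to 9.1 points all counted as kept against a spread of 8.75. The E18.5 difference above all regions was positive in every setting, from 0.273 to 3.88 points.

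With the replicate block by litter, the E18.5 difference was 3.83 points, the same by construction, and 0 regions passed the test over 16279; unadjusted counts of 295 and 117 regions were those without the block. The planned change of motif window needed a genome and was not run. Without a score, a count or a read depth in the lists, an uncalled region may be closed or under the threshold.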
